A study of Mus musculus with 28 samples.

Results

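The Gadd45 family of the mouse has the members Gadd45a, Gadd45b and Gadd45g, and their mRNAs were followed here in embryonic fibroblasts under oxidative stress and under doxorubicin. A probe set, the group of short probes that reads 1 transcript on the array, was taken as a member where its only gene symbol in the platform annotation was one of these names. Each gene had 1 such probe set, so the family stood for 3 of the 45037 probe sets tested, of which 28898 had a single symbol and covered 17097 genes. Gadd45a was read by 1449519_PM_at, Gadd45b by 1450971_PM_at and Gadd45g by 1453851_PM_a_at.

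Gadd45 proteins are small acidic proteins with no known enzyme activity of their own that work by binding other proteins. They bind the kinase Map3k4, which starts the p38 and JNK stress cascades, the replication clamp Pcna, the cell cycle kinase Cdk1 and its inhibitor Cdkn1a, and they have been linked to DNA repair and active DNA demethylation. Gadd45a is the classical DNA damage gene of the family and a target of p53, Gadd45b is best known as a gene of NF-kB and TGF-beta signalling, and Gadd45g as a gene induced by cytokines.

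Primary MEFs at early passage came from 13.5-day-old embryos with intact genes (WT), without p53 (p53-/-) or without p66 (p66-/-), the longest protein of the Shc1 gene, which makes reactive oxygen species in mitochondria. For every genotype 4 untreated arrays were set beside 4 arrays made after 4 h in 400 μM H2O2, an oxidant. WT and p66-/- MEFs also gave 2 arrays each after 4 h in 0.25 μg/ml doxorubicin (Doxo), a drug that breaks DNA through topoisomerase, which makes 28 arrays in 8 groups. Replicates were independent cell preparations by the study's methods, and the labels name the strain C57Bl/6 where the study's text names sv129. The deleted genes were missing from every cell of the knockout embryos. An array of cultured cells cannot tell fewer expressing cells from less RNA per cell.

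No label names a batch, and the sets of arrays spoken of below were drawn from a spiked control. Replicate number also stands for the cell preparation, so set and preparation cannot be told apart. For lys, a spiked bacterial control RNA, replicates 1 and 2 had a mean log2 value of 5.27 ± 0.28 (SD, n = 12 arrays). Replicates 3 and 4 had 3.59 ± 0.28 (SD, n = 12) and the Doxo arrays 4.19 ± 0.16 (SD, n = 4). The first sets each held every genotype with and without H2O2. No untreated array was in the Doxo set, so Doxo and array set cannot be told apart. The sum of the log2 values of 8 fibroblast markers lay between 73.4 and 81.5 in all groups. None of the 8 was called after H2O2 in any genotype. Of all probe sets 3.66% were called there in WT, 0.0178% in p66-/- and 4.56% in p53-/- MEFs, so that in p66-/- MEFs the lack of calls shows little. Of 4 leukocyte and macrophage markers none was called after H2O2 either. Lyz2, the lysozyme of macrophages, averaged 9.75 over all arrays but ran from 5.13 to 11.02. Cd68 averaged 6.32, Csf1r 6.33 and Ptprc 4.22, the last under the array medians of 4.35 to 4.46. The summed log2 values of these 4 ran from 19.1 to 28.5 in p53-/- labelled H2O2, from 21.6 to 28.6 in untreated WT and from 27.2 to 28.7 in untreated p66-/- MEFs. In p53-/- labelled untreated against untreated WT MEFs 1 of the 8 fibroblast markers fell, beside 4.75% of all probe sets called. With the labels exchanged none did. After Doxo against untreated cells, 2 of the 8 fibroblast markers fell in WT and in p66-/- MEFs, and 1 leukocyte marker rose in WT MEFs. In p66-/- MEFs 1 leukocyte marker rose and 1 fell, and 1 of 3 epithelial and 1 of 3 muscle markers rose. With 35.0% (WT) and 40.7% (p66-/-) of all probe sets called after Doxo, these counts are no result about the markers. The part of these cells in the Doxo values was not tested. Of the endothelial markers Pecam1 and Cdh5 averaged 3.28 and 3.64, under the array medians of 4.35 to 4.46, and Kdr 5.05, above them. Cdkn1a, the cell cycle inhibitor p21, checked the p53 genotype, as its mean was 10.49 in untreated WT and 7.65 and 6.64 in the 2 groups of p53-/- MEFs. Shc1 averaged 8.39 in untreated p66-/- and 7.85 in untreated WT MEFs (log2 difference 0.54, unadjusted p = 5.5e-04 and adjusted p = 1.0 from limma), so it shows no loss of the gene's signal, but its probe set was not taken as a check of p66, as the shorter Shc1 products share most of the transcript.

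For the p53-/- MEFs, the treatment labels give directions after H2O2 opposite to those of the study's own lists. The main values that rest on these arrays are therefore given as labelled and again with the treatment labels of the p53-/- arrays exchanged, a reading chosen after the values of these data were known. Where a p53-/- value is given by the labels alone, a change within p53-/- MEFs turns its sign under the exchange.

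Gadd45a was the variable member of the family. Over the 28 arrays its log2 value ran from 6.15 to 10.55, a range of 4.40, and its standard deviation of 1.55 was above that of 99.7% of all probe sets. Gadd45b ran from 8.98 to 10.83, a range of 1.85, with a standard deviation of 0.61 above 88.8% of probe sets. Gadd45g ran from 9.33 to 11.28, a range of 1.95, with a standard deviation of 0.54 above 85.8%. Values of different probe sets are not set against each other, since probes differ in affinity. The plot of the array values shows the pattern the rest of the text describes: Gadd45a took either of a low and a high state, Gadd45b moved over a narrower span and Gadd45g spread within its groups.

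**Figure D1:**
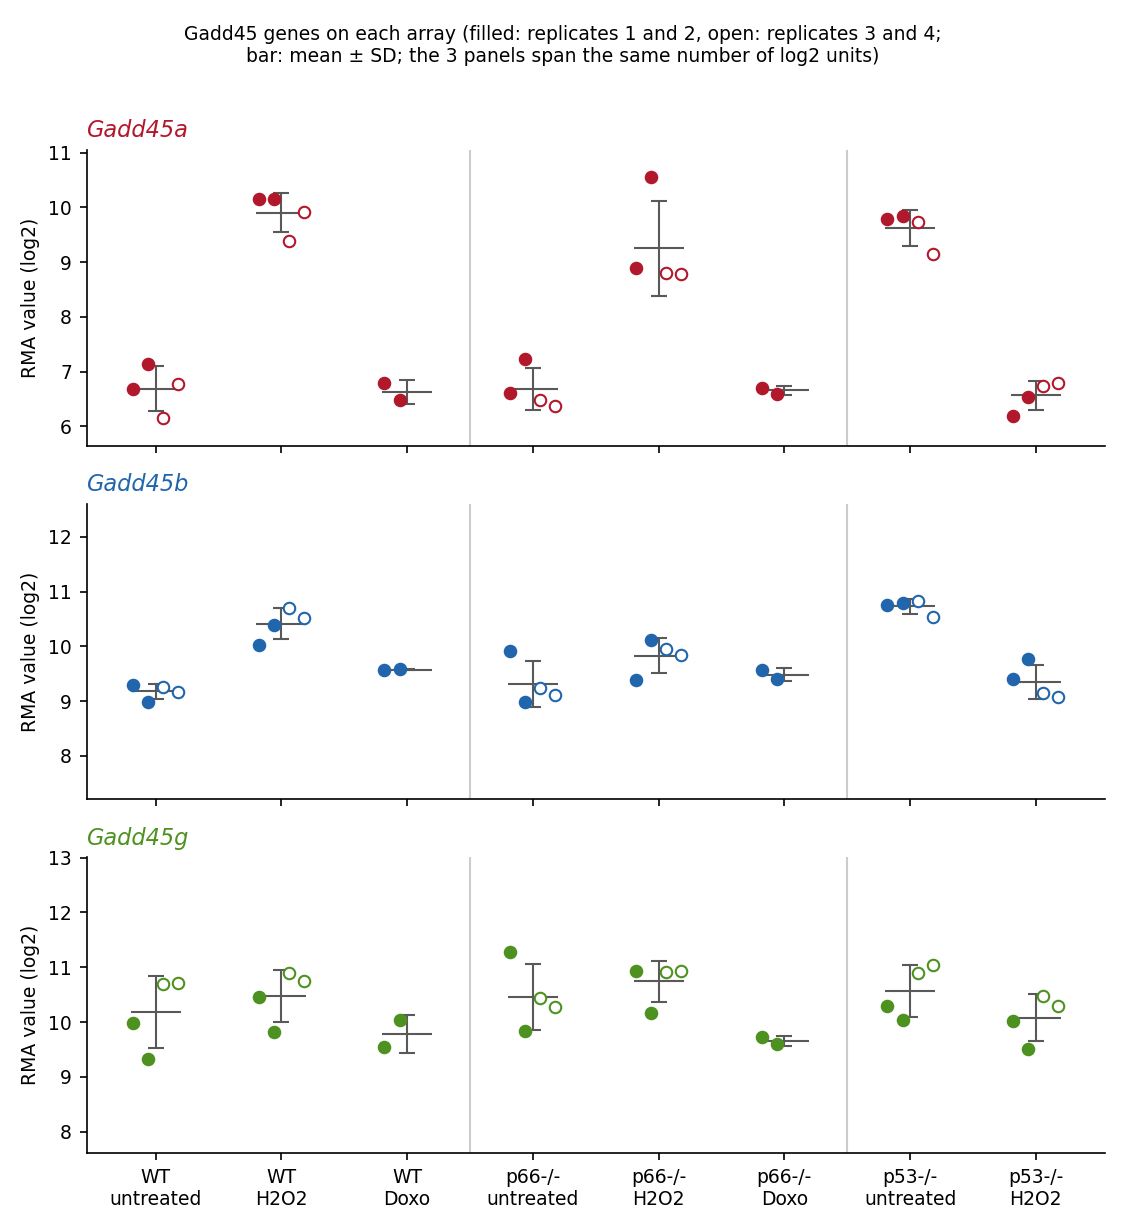
RMA log2 value (y axis) of Gadd45a, Gadd45b and Gadd45g on each of the 28 arrays, by genotype and treatment as labelled (x axis); each point is 1 array and the bars give the group mean ± SD. Gadd45a had 3 high groups (means 9.90, 9.62 and 9.25) apart from 5 low groups (means 6.57 to 6.69), whereas the groups of Gadd45g all overlapped their neighbours.

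The bases just before the start of each gene are printed because members that share a response may still differ in what precedes them. The sequences are from RefSeq on GRCm38.p6 and cover the 250 bases before the annotated start, read 5′ to 3′ on the gene's strand. Gadd45a lies on chromosome 6 (chr6:67037408-67037657, minus strand), Gadd45b on chromosome 10 (chr10:80929841-80930090, plus strand) and Gadd45g on chromosome 13 (chr13:51846425-51846674, plus strand). Capitals mark matches to any of the motifs named after them.
Gadd45a: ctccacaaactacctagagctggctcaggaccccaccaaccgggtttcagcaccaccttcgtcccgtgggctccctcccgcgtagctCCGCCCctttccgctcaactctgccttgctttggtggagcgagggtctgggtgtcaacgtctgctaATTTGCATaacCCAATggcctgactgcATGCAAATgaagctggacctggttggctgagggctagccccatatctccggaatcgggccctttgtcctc
Gadd45b: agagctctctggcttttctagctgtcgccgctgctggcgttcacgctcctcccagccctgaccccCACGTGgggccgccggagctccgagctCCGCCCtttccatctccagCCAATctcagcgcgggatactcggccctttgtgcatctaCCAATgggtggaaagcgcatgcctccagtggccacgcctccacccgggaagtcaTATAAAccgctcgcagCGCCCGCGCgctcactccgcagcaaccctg
Gadd45g: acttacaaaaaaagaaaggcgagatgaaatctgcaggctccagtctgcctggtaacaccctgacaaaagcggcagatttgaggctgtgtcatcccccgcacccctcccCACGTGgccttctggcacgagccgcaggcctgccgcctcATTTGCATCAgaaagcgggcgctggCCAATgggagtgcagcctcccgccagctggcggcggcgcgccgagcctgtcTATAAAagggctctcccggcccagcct

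All 3 promoters held CCAAT, the box bound by NF-Y, which 33.8% of 32851 promoters of this length held on either strand. The octamer ATGCAAAT, bound by Oct-1, was in Gadd45a at 2 places around its CCAAT box and once in Gadd45g, against 1.6% of all promoters. In Gadd45g the octamer overlapped TGATGNAA, a form of the C/EBP-ATF site bound by Atf4, which 3.45% of promoters held. TATAAA was found in Gadd45b and Gadd45g and not in Gadd45a, against 12.4% of promoters. The palindrome CACGTG, an E-box, was in Gadd45b and Gadd45g (6.02%), GGGCGG, a GC box, in Gadd45a and Gadd45b (32.7%), and GCGNGGGCG, the Egr site, in Gadd45b alone (4.7%). TGACGTCA, the cAMP response element, was searched too and was in none of the 3 (1.55% of promoters). These matches describe letters and were not tested as binding sites.

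Gadd45a and Gadd45b rose after H2O2 in WT MEFs. Gadd45a read 6.69, 7.14, 6.15 and 6.78 in untreated replicates 1 to 4 and 10.15, 10.16, 9.39 and 9.92 after H2O2. All treated arrays lay far above all untreated ones. This 9.29-fold rise was a log2 change of 3.22 with a standard error of 0.31 and a 95% interval of 2.58 to 3.85 (limma, adjusted p = 2.8e-06). Gadd45b read 9.30, 8.98, 9.25 and 9.17 without treatment and 10.03, 10.39, 10.70 and 10.52 after H2O2. Its groups did not overlap either, but the step was smaller. This 2.35-fold rise was a log2 change of 1.23 with a standard error of 0.18 and a 95% interval of 0.85 to 1.62 (limma, adjusted p = 2.9e-04). Gadd45g read 9.98, 9.33, 10.69 and 10.71 in untreated cells and 10.45, 9.81, 10.89 and 10.75 after H2O2. Here the groups overlapped over most of their span, and the log2 change of 0.30 (95% interval -0.39 to 0.99, adjusted p = 0.91) did not pass the test and ran from 0.018 to 0.52 as single arrays were left out. So 2 of 3 members were called, where 3.66% of all probe sets were called in either direction (1650, or 3131 with the replicate number as a block). In replicates 1 and 2 alone the adjusted p of Gadd45a was 0.17 and that of Gadd45b 0.34, with changes of 3.24 and 1.07. That fit called 0 of all probe sets. In replicates 3 and 4 alone the changes were 3.19 and 1.40 (adjusted p = 7.6e-05 and 1.4e-04 from limma), beside 2969 of all probe sets called.

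In p66-/- MEFs Gadd45a rose as well. It read 6.61, 7.24, 6.49 and 6.37 without treatment and 8.89, 10.55, 8.80 and 8.78 after H2O2. Replicate 2 stood far above the other treated arrays, and the groups did not overlap. Gadd45a thus changed by 2.58 on the log2 scale, with a standard error of 0.31 and a 95% interval of 1.94 to 3.21 (limma, adjusted p = 0.0011), or by 2.14 without replicate 2 of the treated cells (adjusted p = 2.9e-04). Gadd45b read 9.91, 8.98, 9.23 and 9.12 in untreated cells and 9.38, 10.11, 9.96 and 9.85 after H2O2. Untreated replicate 1 was as high as the treated arrays and treated replicate 1 was low, so that the groups overlapped. The log2 change of 0.52 (95% interval 0.13 to 0.90) had an unadjusted p = 0.011 and an adjusted p = 0.80 from limma, and was 0.72 without untreated replicate 1 (adjusted p = 0.35). Gadd45g read 11.28, 9.84, 10.44 and 10.28 before and 10.94, 10.17, 10.92 and 10.93 after H2O2, with overlapping groups and a log2 change of 0.28 (adjusted p = 1.0). It was 0.47 without treated replicate 2, which lay below the other treated arrays, and ran from 0.07 to 0.55 as single arrays were left out. The single called member, Gadd45a, stands against 0.0178% of all probe sets called in this comparison (8, or 46 with the replicate block). Its call was lost in a limma fit to the p66-/- H2O2 and untreated arrays alone, which gave the same change with an adjusted p = 0.66. That fit called none of all probe sets.

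By the labels, Gadd45a and Gadd45b fell after H2O2 in p53-/- MEFs. Gadd45a read 9.78, 9.84, 9.73 and 9.15 in cells labelled untreated and 6.20, 6.54, 6.73 and 6.80 in cells labelled H2O2. The arrays labelled untreated were thus in the high state seen in WT cells after H2O2. Its log2 change, with a standard error of 0.31, was -3.06 by the labels (limma, adjusted p = 3.9e-06) and 3.06 when they were exchanged. Gadd45b read 10.75, 10.80, 10.83 and 10.53 in cells labelled untreated and 9.41, 9.76, 9.14 and 9.08 in cells labelled H2O2. Again no array of one group reached the other, and the log2 change was -1.38 by the labels (standard error 0.18, adjusted p = 9.6e-05) and 1.38 when they were exchanged. Gadd45g read 10.30, 10.03, 10.89 and 11.04 against 10.01, 9.50, 10.48 and 10.30 in the same order. These groups overlapped, and the log2 change of -0.49 by the labels or 0.49 with them exchanged did not pass (adjusted p = 0.49). In this comparison 4.56% of all probe sets were called (2054, or 4129 with the replicate block) under either reading, against 2 of 3 members.

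**Figure D2:**
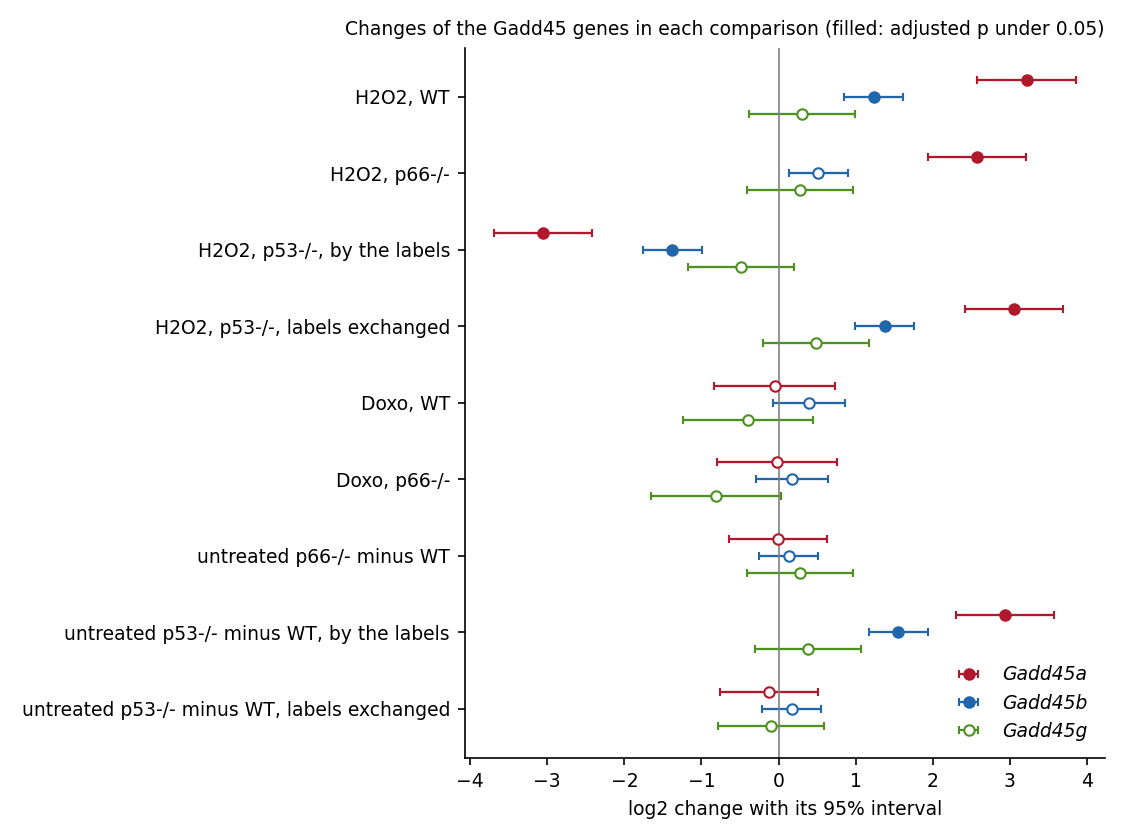
Log2 change (x axis) of the 3 genes in 9 comparisons (y axis), the p53-/- comparisons once as labelled and once with the treatment labels exchanged; points are limma estimates, lines 95% intervals, and filled points had an adjusted p under 0.05. After H2O2 in WT MEFs the interval of Gadd45a (2.58 to 3.85) lay above that of Gadd45b (0.85 to 1.62), and that of Gadd45g held 0.

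The pairs of arrays with the same replicate number showed how even these changes were. In WT MEFs Gadd45a changed by 3.46, 3.02, 3.23 and 3.15 log2 units in pairs 1 to 4, and Gadd45b by 0.73, 1.42, 1.44 and 1.35. Gadd45g changed by 0.47, 0.48, 0.20 and 0.05, above 0 in 4 of 4 pairs although the group comparison did not pass. In p66-/- MEFs Gadd45a changed by 2.28, 3.32, 2.30 and 2.41. Pair 1 of the same cells was the exception for the other members, with -0.53 for Gadd45b and -0.34 for Gadd45g, while pairs 2 to 4 gave 1.13, 0.73 and 0.73 for Gadd45b and 0.33, 0.48 and 0.65 for Gadd45g. In p53-/- MEFs all pairs of all members ran one way, from -3.58 to -2.34 for Gadd45a, from -1.69 to -1.04 for Gadd45b and from -0.74 to -0.29 for Gadd45g by the labels, and the other way with the labels exchanged.

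**Figure D3:**
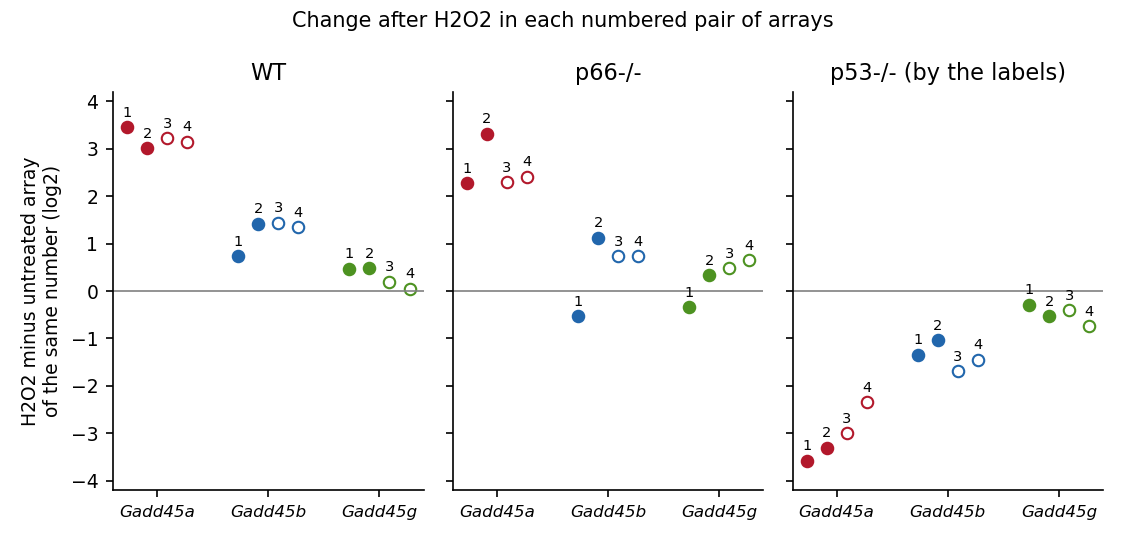
Log2 value of the H2O2 array minus the untreated array of the same replicate number (y axis) for each gene (x axis) in WT, p66-/- and p53-/- MEFs by the labels; each point is 1 pair and carries its number. In WT cells the 4 pairs of Gadd45a lay between 3.02 and 3.46, those of Gadd45b between 0.73 and 1.44 and those of Gadd45g between 0.05 and 0.48.

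Whether the members differed in their response was tested on the difference between their log2 values within each array, in 15 tests adjusted together. The size of a change also depends on the probe set. After H2O2 in WT MEFs the named Gadd45b probe set gave 1.23 and further ones described below 1.51 and 0.83. In WT MEFs Gadd45a changed by 1.98 more than Gadd45b (standard error 0.40) and by 2.92 more than Gadd45g (standard error 0.64) after H2O2. For both, the treated arrays did not overlap the untreated ones, which gives p = 0.029 in the two-sided exact permutation test, the lowest value within reach of 4 against 4 arrays, and an adjusted p = 0.071. Gadd45b changed by 0.93 more than Gadd45g, where the arrays overlapped (exact p = 0.057, adjusted p = 0.122). The same differences in p66-/- MEFs were 2.06 for Gadd45a over Gadd45b and 2.30 for Gadd45a over Gadd45g, both with an exact p = 0.029 and an adjusted p = 0.071. The difference of 0.24 between Gadd45b and Gadd45g in these cells had an exact p = 0.6. In p53-/- MEFs by the labels the differences were -1.68, -2.57 and -0.89 in the same order, with exact p = 0.029, 0.029 and 0.114, and their signs turn with the labels exchanged. None of the 15 tests passed 0.05 after adjustment. Any could pass only if all 9 H2O2 tests reached the lowest p of 4 against 4 arrays, so this failure says little about the differences. These tests do not use the pairing of untreated and H2O2 arrays, so the 9 H2O2 differences were also taken within pairs, a choice made after the data were seen. In 8 of the 9 all 4 pairs had one sign, with Gadd45b over Gadd45g in WT MEFs between 0.26 and 1.3, and in p66-/- MEFs 3 of 4 pairs had Gadd45b over Gadd45g. The exact test over the signs of 4 pairs can give no p below 0.125, which those 8 differences reached, and so cannot pass 0.05. The 6 tests on Doxo arrays could give no p below 0.133 with 2 arrays against 4, and their raw p-values from the exact permutation test were 0.133 to 0.8.

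By the named probe sets, Doxo left all members without a called change. In WT MEFs Gadd45a read 6.79 and 6.48 after Doxo, inside its untreated range, and its log2 change was -0.05 (95% interval -0.83 to 0.73, adjusted p = 0.93 from limma), which became 0.25 after a further quantile normalization. Gadd45b read 9.57 and 9.58, above all untreated WT arrays, with a log2 change of 0.40 (95% interval -0.07 to 0.86, adjusted p = 0.18). Gadd45g read 9.54 and 10.03, inside its untreated range, with a log2 change of -0.39 (adjusted p = 0.46). Among all probe sets 35.0% were called in this comparison. In p66-/- MEFs Gadd45a read 6.71 and 6.60 and Gadd45b 9.57 and 9.40, both inside their untreated ranges. Their log2 changes were -0.02 and 0.17 (adjusted p = 0.97 and 0.55), that of Gadd45a being 0.30 after the further quantile normalization. Gadd45g read 9.72 and 9.59, below all 4 untreated p66-/- arrays, and its log2 change of -0.81 (95% interval -1.65 to 0.03) had an adjusted p = 0.11. In these cells 40.7% of all probe sets were called. The median log2 change over all probe sets was 0.13 in WT and 0.15 in p66-/- MEFs after Doxo. In a fit to the WT Doxo and untreated arrays alone the change of Gadd45b was called (adjusted p = 0.032). The differences between the Doxo responses of p66-/- and WT MEFs were 0.03 for Gadd45a, -0.22 for Gadd45b and -0.42 for Gadd45g, none called, as for 0.0% of all probe sets by limma (1077 at an unadjusted p under 0.05).

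Set directly against the H2O2 arrays, a comparison added after the data were seen, the Doxo arrays were lower for most members. In WT MEFs the log2 difference of Doxo minus H2O2 was -3.27 for Gadd45a (adjusted p = 2.5e-06 from limma), -0.84 for Gadd45b (adjusted p = 0.0082) and -0.69 for Gadd45g (adjusted p = 0.20). Of all probe sets 29.8% were called there. The p66-/- MEFs gave -2.60 for Gadd45a (adjusted p = 2.0e-05), -0.34 for Gadd45b (adjusted p = 0.22) and -1.09 for Gadd45g (adjusted p = 0.033), among 45.7% of all probe sets. The call of Gadd45g was lost without treated replicate 1, 3 or 4 or without either Doxo array, with an adjusted p of up to 0.16. That of Gadd45b in WT MEFs was lost without either WT Doxo array (adjusted p = 0.052 and 0.069). Between these arrays of p66-/- MEFs, 1 of 4 leukocyte and macrophage markers rose and 1 fell, 1 of 3 endothelial and 1 of 3 epithelial markers rose, and 2 of 8 fibroblast markers fell, while none of these or of the 3 muscle markers was called in WT MEFs. The summed log2 values of the leukocyte and macrophage markers were 27.7 to 29.2 on the p66-/- Doxo arrays and 25.8 to 28.8 on the p66-/- H2O2 arrays. Their part in the values of Gadd45g was not tested.

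No member was called between untreated p66-/- and WT MEFs. The log2 differences between untreated p66-/- and WT MEFs were -0.01 for Gadd45a (95% interval -0.65 to 0.63), 0.13 for Gadd45b (-0.25 to 0.52) and 0.28 for Gadd45g (-0.40 to 0.97). None was called, as for 0.0% of all probe sets by limma (593 at an unadjusted p under 0.05). The unmoderated test of the study's methods, adjusted here in the same way, called none either (1212 at an unadjusted p under 0.05). By the labels, untreated p53-/- MEFs exceeded untreated WT MEFs by 2.94 for Gadd45a (adjusted p = 3.5e-06), by 1.55 for Gadd45b (adjusted p = 2.0e-05) and by 0.39 for Gadd45g (adjusted p = 0.64), among 4.75% of all probe sets (2141, or 4302 with the replicate block). With the labels exchanged these differences were -0.12, 0.17 and -0.10, none of them called (adjusted p = 0.95 or above), and 0.0844% of all probe sets were.

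The response to H2O2 was also compared between genotypes. For Gadd45a the p66-/- response minus the WT response was -0.64 on the log2 scale (95% interval -1.54 to 0.26, unadjusted p = 0.16 from limma). For Gadd45b the difference was -0.72 (95% interval -1.26 to -0.18, unadjusted p = 0.012), which passed the thresholds of the study (an unadjusted p under 0.05 and 1.5-fold) but not the adjustment (adjusted p = 1.0). For Gadd45g it was -0.02 (95% interval -0.99 to 0.95). Only 0.00222% of all probe sets, 1 in number, were called in this comparison. Without treated replicate 2 of the p66-/- MEFs the difference was -1.07 for Gadd45a and -0.81 for Gadd45b (adjusted p = 0.43 and 0.60), and without untreated replicate 1 it was -0.52 for Gadd45b. The p53-/- response differed from the WT response by -6.27 for Gadd45a (adjusted p = 6.0e-09), by -2.61 for Gadd45b (adjusted p = 5.0e-07) and by -0.79 for Gadd45g (adjusted p = 0.35) by the labels, among 10.8% of all probe sets (4866, or 7781 with the replicate block). With the labels exchanged it differed by -0.16, 0.15 and 0.19, with an adjusted p = 1.0 for each, and 0.02% of all probe sets were called.

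Ordered by their means, the groups of Gadd45a fell on 2 sides of a gap. The high side held WT after H2O2 (9.90 ± 0.36, SD, n = 4), p53-/- labelled untreated (9.62 ± 0.32, SD, n = 4) and p66-/- after H2O2 (9.25 ± 0.87, SD, n = 4). The low side held the untreated and Doxo groups of WT and p66-/- MEFs and p53-/- labelled H2O2, with means from 6.57 to 6.69, and the arrays of each neighbour on the same side overlapped. For Gadd45b the order ran from p53-/- labelled untreated (10.73 ± 0.13, SD, n = 4) through WT after H2O2 (10.41) and p66-/- after H2O2 (9.83) down to untreated WT (9.18 ± 0.14, SD, n = 4), and every neighbouring pair of groups overlapped. For Gadd45g p66-/- after H2O2 was highest (10.74 ± 0.38, SD, n = 4) and p66-/- after Doxo lowest (9.65, from 2 arrays), again with overlap between all neighbours. With the p53-/- labels exchanged, the 3 high groups of Gadd45a were the H2O2 groups of the 3 genotypes.

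In WT and p53-/- MEFs without Doxo, replicates 1 and 2 of Gadd45g lay below replicates 3 and 4 of their group. Replicate 2 was the lowest array in every group without Doxo. Relative to its group means Gadd45g averaged -0.28 ± 0.47 in replicates 1 and 2 and 0.28 ± 0.22 in replicates 3 and 4 (SD, n = 12 arrays each). The p66-/- MEFs were an exception for replicate 1. It read 11.28 untreated, the highest value of all arrays and 0.82 above its group mean, and 10.94 after H2O2. The means of replicates 1 and 2 thus join arrays that were unlike each other. Gadd45a went the other way, with 0.20 and -0.20. Its replicate 2 was the highest array in every group without Doxo but p53-/- labelled H2O2. Gadd45b stayed near 0 with 0.02 and -0.02. Over the 28 arrays the deviations of Gadd45a and Gadd45g from their group means had a Pearson correlation of -0.57, while those of Gadd45a with Gadd45b gave -0.03 and those of Gadd45b with Gadd45g 0.14. These are descriptions over arrays that share preparations and array sets. Within the sets, the log2 change of Gadd45g after H2O2 in p53-/- MEFs by the labels was called in replicates 3 and 4 alone. It was -0.57 there (adjusted p = 0.011 from limma), with the opposite sign when the labels are exchanged. That fit had 2 arrays a group and called 3726 of all probe sets.

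**Figure D4:**
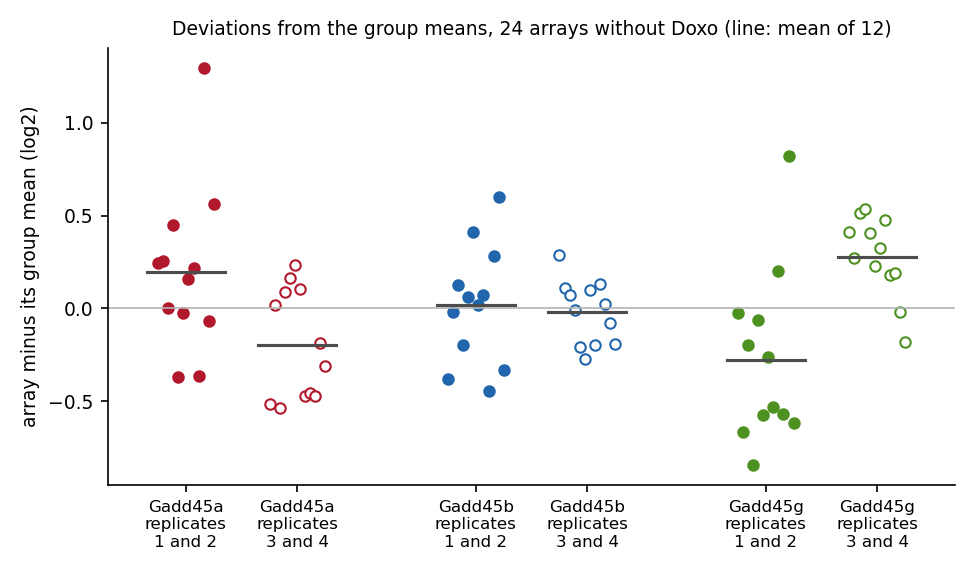
Log2 value minus the mean of the array's own group (y axis) for each gene in replicates 1 and 2 and in replicates 3 and 4 (x axis), for the arrays without Doxo; each point is 1 array and each line the mean of 12. The means of Gadd45g were -0.28 and 0.28, those of Gadd45a 0.20 and -0.20 and those of Gadd45b 0.02 and -0.02.

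Gadd45b had further probe sets that the annotation used here leaves without a name and the study's own lists call Gadd45b, and they were looked at after the data were seen. The brighter one went from a mean of 8.10 in untreated WT to 9.61 after H2O2 (log2 change 1.51, adjusted p = 8.9e-04 from limma). Its change in p66-/- MEFs was 0.58 (adjusted p = 1.0) and in p53-/- MEFs -1.50 by the labels (adjusted p = 0.001), turned in sign when they are exchanged, so that it was called in the same H2O2 comparisons as the named probe set. The other was dimmer, with a mean of 4.30 in untreated WT and 5.12 after H2O2 (log2 change 0.83, adjusted p = 0.10, or 0.0061 with the replicate block). It differed from the named probe set after Doxo, with called changes of 0.87 in WT (adjusted p = 0.042) and 0.94 in p66-/- MEFs (adjusted p = 0.026). Of all probe sets 35.0% and 40.7% were called there. After Doxo the brighter one read 8.73 and 8.64 in WT MEFs, above all untreated WT arrays. In p66-/- MEFs it read 8.75 and 8.56, inside its untreated range.

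The genes most like each member over the 28 arrays were sought among 8549 genes with a standard deviation above the median. For Gadd45a they were Apobr, a lipoprotein receptor, and Ccng2, an atypical cyclin of non-dividing cells (Pearson correlation 0.948 each), then C920006O11Rik, 5430416N02Rik and Magef1 (0.943 to 0.932). For Gadd45b they were Ppp1r15a, which restarts protein synthesis after stress (0.945), 5430416N02Rik (0.932), Zfand2a, a proteasome partner induced by arsenite (0.926), the stress transcription factor Atf3 (0.924) and Cyp27b1, which makes active vitamin D (0.916). For Gadd45g they were Rbm28, a nucleolar RNA-binding protein (0.850), the ubiquitin ligase Nedd4l, Rassf6, Zfp180 and the clotting inhibitor Tfpi (0.826 to 0.807). Gadd45b ranked 93rd among the genes most like Gadd45a (0.808), whereas Gadd45g ranked 1686th (0.311). The arrays share their groups and sets, so that these values describe likeness over these samples alone.

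Among genes named with the family for their induction by growth arrest and DNA damage, both measured ones rose in WT MEFs after H2O2, where 3.66% of all probe sets were called. Ppp1r15a, also called Gadd34, had a log2 change of 2.29 and Ddit3, also called Gadd153 or CHOP, one of 1.69 (adjusted p = 4.8e-07 and 4.2e-04 from limma). In p66-/- MEFs Ppp1r15a rose by 1.20 (adjusted p = 0.018), while the change of 1.42 of Ddit3 had an adjusted p = 0.066. After Doxo the WT changes were 0.63 for Ppp1r15a (adjusted p = 0.039) and 0.73 for Ddit3 (adjusted p = 0.085), and the p66-/- changes were 0.44 for Ppp1r15a (adjusted p = 0.14) and 0.91 for Ddit3 (adjusted p = 0.03), beside 35.0% and 40.7% of all probe sets called. In p53-/- MEFs both fell by the labels, with -2.41 and -1.93, or rose by as much with the labels exchanged.

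Of 14 measured transcription factors known to act on Gadd45 genes, 1 rose and 1 fell in WT MEFs after H2O2, beside 3.66% of all probe sets called, with a median log2 change of 0.02 beside 0.02 over all probe sets. Foxo3, a forkhead factor that acts on the Gadd45a promoter, rose by 1.57 (adjusted p = 3.1e-04 from limma) and Stat3, a cytokine factor, fell by 0.59 (adjusted p = 0.029). Smad2, a TGF-beta factor, had a change of 0.40 (adjusted p = 0.15) and Rela, a subunit of NF-kB, one of 0.26 (adjusted p = 0.19). None of the 14 was called in p66-/- MEFs, where Foxo3 had a change of 1.07 (adjusted p = 0.16). In p53-/- MEFs Foxo3 had a change of -1.16 by the labels or 1.16 with them exchanged (adjusted p = 0.0047), and its response differed from that of WT MEFs by -2.73 (adjusted p = 6.8e-06) or -0.41 (adjusted p = 1.0). By the labels 1 of the 14 responses differed upward and 3 downward, beside 10.8% of all probe sets called. Besides Foxo3 these were Stat3 (1.07, adjusted p = 0.0016), Atf4 (-0.73, adjusted p = 0.014) and Rela (-0.48, adjusted p = 0.027). With the labels exchanged none of the 14 was called. After Doxo 3 rose and 5 fell in WT MEFs, where 35.0% of all probe sets were called, with a median of -0.29 beside 0.13 over all probe sets. Rela rose there by 0.68 and Foxo3 by 1.29 (adjusted p = 2.0e-04 and 0.0018). Myc, which represses Gadd45a, fell by 2.75 and Brca1, which acts on Gadd45a, fell by 1.58 (adjusted p = 1.9e-06 and 2.6e-04).

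Of the 7 measured kinases of the p38 and JNK cascades, none was called by limma after H2O2 in WT, p66-/- or p53-/- MEFs, with medians of 0.05 and -0.03 in WT and p66-/- MEFs. At an unadjusted p under 0.05 stood Map2k4 (0.27) and Mapk9 (0.29) in WT, Mapk9 (0.30) in p66-/- and none in p53-/- MEFs. Map3k4, the kinase that Gadd45 proteins bind, had a WT change of -0.36 (adjusted p = 0.71). After Doxo in WT MEFs 3 of the 7 fell, the JNK kinases Mapk8 (-0.95) and Mapk9 (-0.70) and their activator Map2k4 (-0.60), with an adjusted p = 0.0031 or below, and the same genes fell in p66-/- MEFs. With 35.0% and 40.7% of all probe sets called in these comparisons, 3 of 7 is near the background and is no result about these kinases. Their median of 0.02 stood beside 0.13 for all probe sets.

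Among 5 measured partners in the cell cycle, 1 rose and none fell after H2O2 in WT MEFs, beside 3.66% of all probe sets called. This was Cdkn1a, with a log2 change of 1.27 (adjusted p = 8.9e-04 from limma), while Aurka, a mitotic kinase, had a change of -0.58 (adjusted p = 0.59) and Cdk1 one of -0.36 (adjusted p = 0.72). Cdkn1a in p66-/- MEFs had a change of 0.80 (adjusted p = 0.35), and after Doxo it rose by 1.5 in WT and by 1.3 in p66-/- MEFs (adjusted p = 1.7e-04 and 5.9e-04). Cdkn1a thus rose after Doxo, where Gadd45a had no called change. Of 7 measured genes of repair and demethylation, 1 rose and none fell after H2O2 in WT MEFs, beside the same 3.66%, namely Ercc5, the XPG nuclease of excision repair, with 1.07 (adjusted p = 0.023). Ing1, a chromatin reader that binds Gadd45a, had a change of -0.41 (adjusted p = 0.083). Tdg, the glycosylase that takes part in demethylation, had a change of -0.12 (adjusted p = 0.96) after H2O2 and fell by 0.90 after Doxo (adjusted p = 0.0043). The dioxygenase Tet2 fell there by 1.24 (adjusted p = 0.033) and the base excision nuclease Apex1 rose by 0.67 (adjusted p = 0.035), so that 1 rose and 2 fell beside 35.0% of all probe sets called.

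**Figure D5:**
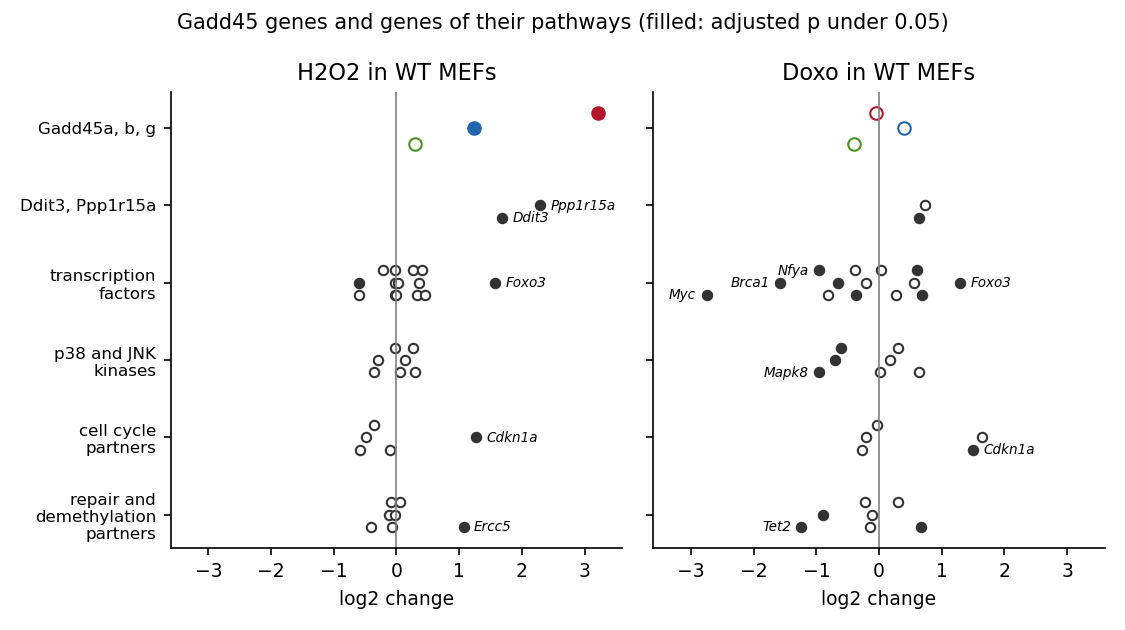
Log2 change (x axis) of the Gadd45 genes (red Gadd45a, blue Gadd45b, green Gadd45g) and of the genes of each pathway list (y axis) after H2O2 and after Doxo in WT MEFs; each point is 1 gene, filled where its adjusted p was under 0.05. Gadd45a lay at 3.22 after H2O2 and at -0.05 after Doxo, Ppp1r15a at 2.29 and 0.63, and Cdkn1a at 1.27 and 1.5.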

How the data were processed

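The authors normalized 28 Affymetrix strip arrays with RMA in Partek 6.5, per the labels and methods, and deposited the log2 values used here, which run from 1.95 to 13.47. Arrays have no read depth, so precision depends on how many there are. Of 45141 probe sets, 104 controls were left out, and 551 with several symbols and 15588 with none were tested but not named. A group-mean model over all 8 groups was fitted with limma 3.58.1 (R 4.3.3, moderated spread), and p-values were adjusted by Benjamini and Hochberg over all 45037. A gene was said to rise or fall at an adjusted p under 0.05. Paralogs were compared by two-sided exact permutation tests (scipy 1.17.1). Genes of lists were read at the probe set with the highest mean, and up to 4 members of lowest adjusted p in a comparison, plus any called against the rest, were named, the same genes being followed into the other comparisons. The members and lists were chosen with earlier results of these data known. Deviations from group means correlated at 0.51 to 0.75 between untreated and H2O2 arrays of one number, and these were treated as pairs. For Doxo they correlated at -0.08 to 0.05, and these were not. Arrays of different numbers were not correlated, and the array sets follow the numbers. These values therefore cannot show by themselves that the arrays are pairs. The group-mean model did not use the pairs, so its intervals include the spread between preparations. The fits were tested on simulated data. Lists counted only genes with a single symbol, so Trp53, Nfkb1, Pou2f1, Map2k7, Ccnb1 and Tet1 are not reported here. Cell type markers, spike-in controls and the alternatives of the closing section were computed from the same values.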

Additional observations from a re-analysis of the deposited data

Results flagged for a closer look

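Of 18 sets of 4 arrays examined for the members, 3 held an array far from the others, judged by its gap to the nearest array as a share of the group's range against Dixon's 95% limit, which chance passes in about 1 of 20 groups. Gadd45a in p66-/- MEFs after H2O2 had replicate 2 at 10.55, with a share of 0.938. Gadd45g in the same group had replicate 2 at 10.17, below the others, with a share of 0.968. Gadd45a in p53-/- MEFs labelled untreated had replicate 4 at 9.15, with a share of 0.847. Without that array the p53-/- change of Gadd45a was -3.22 by the labels, with the opposite sign when they are exchanged.

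The H2O2 response of p53-/- MEFs differed from that of WT MEFs by -6.27 for Gadd45a and by -2.61 for Gadd45b on the log2 scale by the labels, tested as interaction terms in limma. With the treatment labels of the p53-/- arrays exchanged, these differences were -0.16 and 0.15 and neither was called.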

How the results depend on the processing

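Across all alternatives for the 3 genes in 12 comparisons, 544 values kept their direction and their side of the threshold, 46 turned, 27 lost a call and 7 gained one. Alternatives that change only the test, the threshold or the probe sets tested keep the log2 change, so they cannot turn a direction. Exchanging the p53-/- labels turns every change within p53-/- MEFs by construction. The 544 and the 46 thus include outcomes fixed in advance. The replicate block changed no call of a member, with Gadd45a at 3.22 in WT MEFs after H2O2 (adjusted p = 1.2e-06). This block is a term for each replicate number, shared by all genotypes and the Doxo arrays, so it does not model the pairs of each genotype. The calls of Gadd45a in all genotypes and of Gadd45b in WT and p53-/- MEFs after H2O2 held in every fit that left out 1 array. The causes of the shifts below were not tested. Replicates 1 and 2 alone leave 2 arrays a group, and so do replicates 3 and 4 alone. After H2O2 the former called 0 of all probe sets in WT, p66-/- and p53-/- MEFs. The latter called 2969 in WT, 114 in p66-/- and 3726 in p53-/- MEFs.

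With the p53-/- labels exchanged, with or without the block, the H2O2 changes in p53-/- MEFs were 3.06 (Gadd45a), 1.38 (Gadd45b) and 0.49 (Gadd45g), the differences from untreated WT -0.12, 0.17 and -0.10, and the response differences -0.16, 0.15 and 0.19. Against untreated WT cells, the p53-/- H2O2 arrays gave -0.12 for Gadd45a and 0.17 for Gadd45b.

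The p53-/- values that follow are by the labels. In replicates 1 and 2 alone, calls were lost after H2O2 for Gadd45a in WT (3.24), p66-/- (2.80) and p53-/- MEFs (-3.44) and for Gadd45b in WT (1.07) and p53-/- MEFs (-1.19), in untreated p53-/- against WT (2.90 and 1.63), and for the p53-/- response of Gadd45b (-2.26). The p66-/- change of Gadd45g was -0.0019 there and the untreated p66-/- difference of Gadd45a 0.012. In replicates 3 and 4 alone, calls were gained for Gadd45b in p66-/- MEFs (0.73, adjusted p = 0.049) and for Gadd45g in p53-/- MEFs (-0.57) and in their response difference (-0.69), while the untreated p66-/- differences were -0.038 (Gadd45b) and -0.34 (Gadd45g) and the p66-/- response difference of Gadd45g was 0.44.

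The methods' t-test was read here at an adjusted p under 0.05, where the study used an unadjusted p. Read so, it did not call Gadd45a in p66-/- MEFs after H2O2 (2.58). It called no probe set there, with 1948 at an unadjusted p under 0.05, and the study's thresholds applied to limma kept this call of Gadd45a. Nor did the adjusted t-test call Doxo minus H2O2 for Gadd45a (-3.27 in WT, -2.60 in p66-/- MEFs), Gadd45b in WT (-0.84) and Gadd45g in p66-/- MEFs (-1.09). Fits to the compared groups alone lost Gadd45a in p66-/- MEFs (2.58) and gained Gadd45b after Doxo in WT MEFs (0.40). The study's thresholds added the p66-/- response difference of Gadd45b (-0.72). A further quantile normalization turned the Doxo changes of Gadd45a to 0.25 in WT and 0.30 in p66-/- MEFs. Read by the dimmer unnamed probe set, Gadd45b changed by 0.83 after H2O2 in WT, by 0.87 and 0.94 after Doxo in WT and p66-/- MEFs, and by 0.066 in the Doxo response difference, and Doxo minus H2O2 was 0.047 and 0.67.

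Leaving out 1 array at a time turned or lost some values, with ranges for Gadd45a of -0.23 to 0.10 (Doxo in WT), -0.12 to 0.17 (Doxo in p66-/-), -0.20 to 0.14 (untreated p66-/- minus WT), -0.12 to 0.22 (the Doxo response difference), for Gadd45b of -0.067 to 0.24 (untreated p66-/- minus WT), -0.96 to -0.74 (Doxo minus H2O2 in WT) and for Gadd45g of -0.24 to 0.26 (the p66-/- response difference), -1.28 to -1.02 (Doxo minus H2O2 in p66-/-).

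Counts of called probe sets moved more than those of members. At an adjusted p under 0.05 they ran from 0 to 3131 for H2O2 in WT, from 0 to 114 in p66-/- and from 0 to 4129 in p53-/- MEFs, from 7121 to 23057 and from 5953 to 25023 for Doxo in WT and p66-/- MEFs, from 0 to 14 and from 2 to 4302 for untreated p66-/- and p53-/- against WT, from 0 to 300 and from 9 to 7781 for the H2O2 response differences of p66-/- and p53-/-, from 0 to 2 for the Doxo response difference, and from 0 to 21366 and from 12199 to 26671 for Doxo minus H2O2. The study's thresholds, which use an unadjusted p, passed 409 probe sets for H2O2 in p66-/- MEFs, 58 for untreated p66-/- against WT, 469 for the p66-/- H2O2 response difference, 59 for the Doxo response difference, 10125 and 11137 for Doxo in WT and p66-/- MEFs, and 12152 for Doxo minus H2O2 in p66-/- MEFs. Probe intensity limits what can be seen, and Doxo groups of 2 arrays leave wide intervals.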
